A study of Mus musculus with 13 samples.

Results

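The genes described here carry the symbols given to proteins of the mitochondrial ribosome and of the mitochondrial import machinery. They were chosen by name alone, as the genes whose platform symbol begins with Mrpl, Mrps, Timm or Tomm followed by a digit. The rule found 103 of the 21893 genes measured. By symbol, 49 (Mrpl) formed the large subunit set, 29 (Mrps) the small subunit set and 25 the import set, of which 15 were Timm and 10 were Tomm genes. A symbol need not match the place of the protein, and whether each product belongs to its set was not checked for these genes. They were compared between 6 TH-MYCN+/+ and 7 wild-type samples of sympathetic ganglia from mice at 2 weeks of age, each labelled as holding superior cervical and coeliac ganglia. TH-MYCN+/+ mice are homozygous for a human MYCN transgene driven by a tyrosine hydroxylase promoter, so that the transgene acts mainly in cells of the sympathetic lineage, and they are a model of neuroblastoma. The wild-type mice were littermates of matching age. Total RNA of each sample was labelled with Cy3 and hybridised to its own 1-colour Agilent array. Whether the arrays come from separate animals is not stated in the labels. The p-values below therefore cover the spread among these 13 arrays and may be technical in part. With so few arrays, precision is limited.

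Mitochondria keep a small genome, and the few proteins it encodes, all subunits of the respiratory chain, are made by a ribosome of their own. The RNA of that ribosome comes from mitochondrial DNA, but each of its proteins is encoded in the nucleus, translated in the cytosol and imported. Import begins at the TOM complex of the outer membrane, where Tomm20, Tomm22 and Tomm70a act as receptors and Tomm40 forms the channel. Small Tim proteins then chaperone hydrophobic proteins across the intermembrane space, the TIM22 complex inserts carriers into the inner membrane, and the TIM23 complex passes proteins with a presequence into the matrix. MYC proteins, MYCN among them, bind DNA with MAX at the E-box CACGTG and are known for raising genes of ribosome production and growth.

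The promoters of these genes are shown first because the transgene encodes a factor that binds a known sequence. RefSeq promoters (GRCm38.p6, 250 bases before to 50 after each start site) were matched by symbol for 91 of the 103 genes. The letters CACGTG, which read the same on both strands, stood in 10 of these 91 promoters (10.99%), against 8.09% of the 27025 promoters of all genes. By set, the E-box was found in 4 of 43 large subunit promoters, 1 of 26 small subunit promoters and 5 of 22 import promoters. In the 60-base stretches below, written on the strand of the gene, capitals mark CACGTG and the ETS motif CCGGAAG, read on either strand, which is the core bound by GABP. Tomm20, Tomm20l, Timm8a1 and Mrpl2 are the genes with an E-box that were higher in TH-MYCN+/+ ganglia, Timm10 carries an E-box and was lower, and Mrps18c carries one and did not pass the test. Of the other 4 genes with an E-box, which are not printed, Mrpl20 was lower and Timm9, Mrpl36 and Mrpl37 were not called.
Tomm20 (chr8:126946015-126946074, minus strand): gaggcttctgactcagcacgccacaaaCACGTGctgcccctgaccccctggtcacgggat
Tomm20l (chr12:71111376-71111435, plus strand): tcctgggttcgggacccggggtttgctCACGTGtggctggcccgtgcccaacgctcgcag
Timm8a1 (chrX:134541861-134541920, minus strand): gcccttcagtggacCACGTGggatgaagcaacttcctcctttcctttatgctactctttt
Mrpl2 (chr17:46646063-46646122, plus strand): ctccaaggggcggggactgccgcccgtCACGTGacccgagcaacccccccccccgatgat
Timm10 (chr2:84827011-84827070, plus strand): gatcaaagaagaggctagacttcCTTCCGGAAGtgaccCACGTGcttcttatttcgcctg
Mrps18c (chr5:100798569-100798628, plus strand): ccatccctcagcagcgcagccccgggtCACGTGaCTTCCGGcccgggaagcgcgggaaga
In Timm10 an ETS match on each strand overlaps the other within the capitals before the E-box. The letters CCGGAAG stood in 35 of the 91 promoters (38.46%), against 9.93% of all promoters. The motif of NRF1, a regulator of nuclear genes for mitochondria, searched on both strands as GCGC, then any base, then TGCGC, stood in 15 (16.48%), against 5.19% of all promoters. That of YY1, searched as AAGATGGC on both strands, stood in 13 (14.29%), against 3.19%. A match describes the letters of a promoter and says nothing of binding.

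In TH-MYCN+/+ ganglia, single genes of the mitochondrial ribosome and of import moved in both directions and by small amounts. A gene was called when its adjusted p was under 0.05 in limma's moderated test over all 21893 genes with Benjamini-Hochberg adjustment, on quantile normalized log2 intensities. Where several probes of a gene are described, calls on its other probes come from the same test over all 55681 array probes. Of the 103 genes, 19 were higher (18.4%) and 27 were lower (26.2%), while 57 were not called. Across all genes tested 18.9% were called higher and 34.3% lower, together 53.2%, so the share called higher lay near the background and the share called lower lay below it. Among the 14243 genes above background on every array, a closer match in brightness, 25.1% were called higher and 44.5% lower. No member was called with a change of 2-fold or more, against 7.95% of all genes called higher and 15% called lower by that much. The log2 fold change was above 0 for 48 members, against 38.2% of all genes. The median log2 fold change was -0.015 over the 103 genes, beside -0.15 over all genes and -0.22 over the genes above background on every array. All but 1 of the members, 102, lay above background on all arrays. The exception, Timm8a2, was above background on 0 of 6 TH-MYCN+/+ and 2 of 7 wild-type arrays and is given no fold change.

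**Figure D1:**
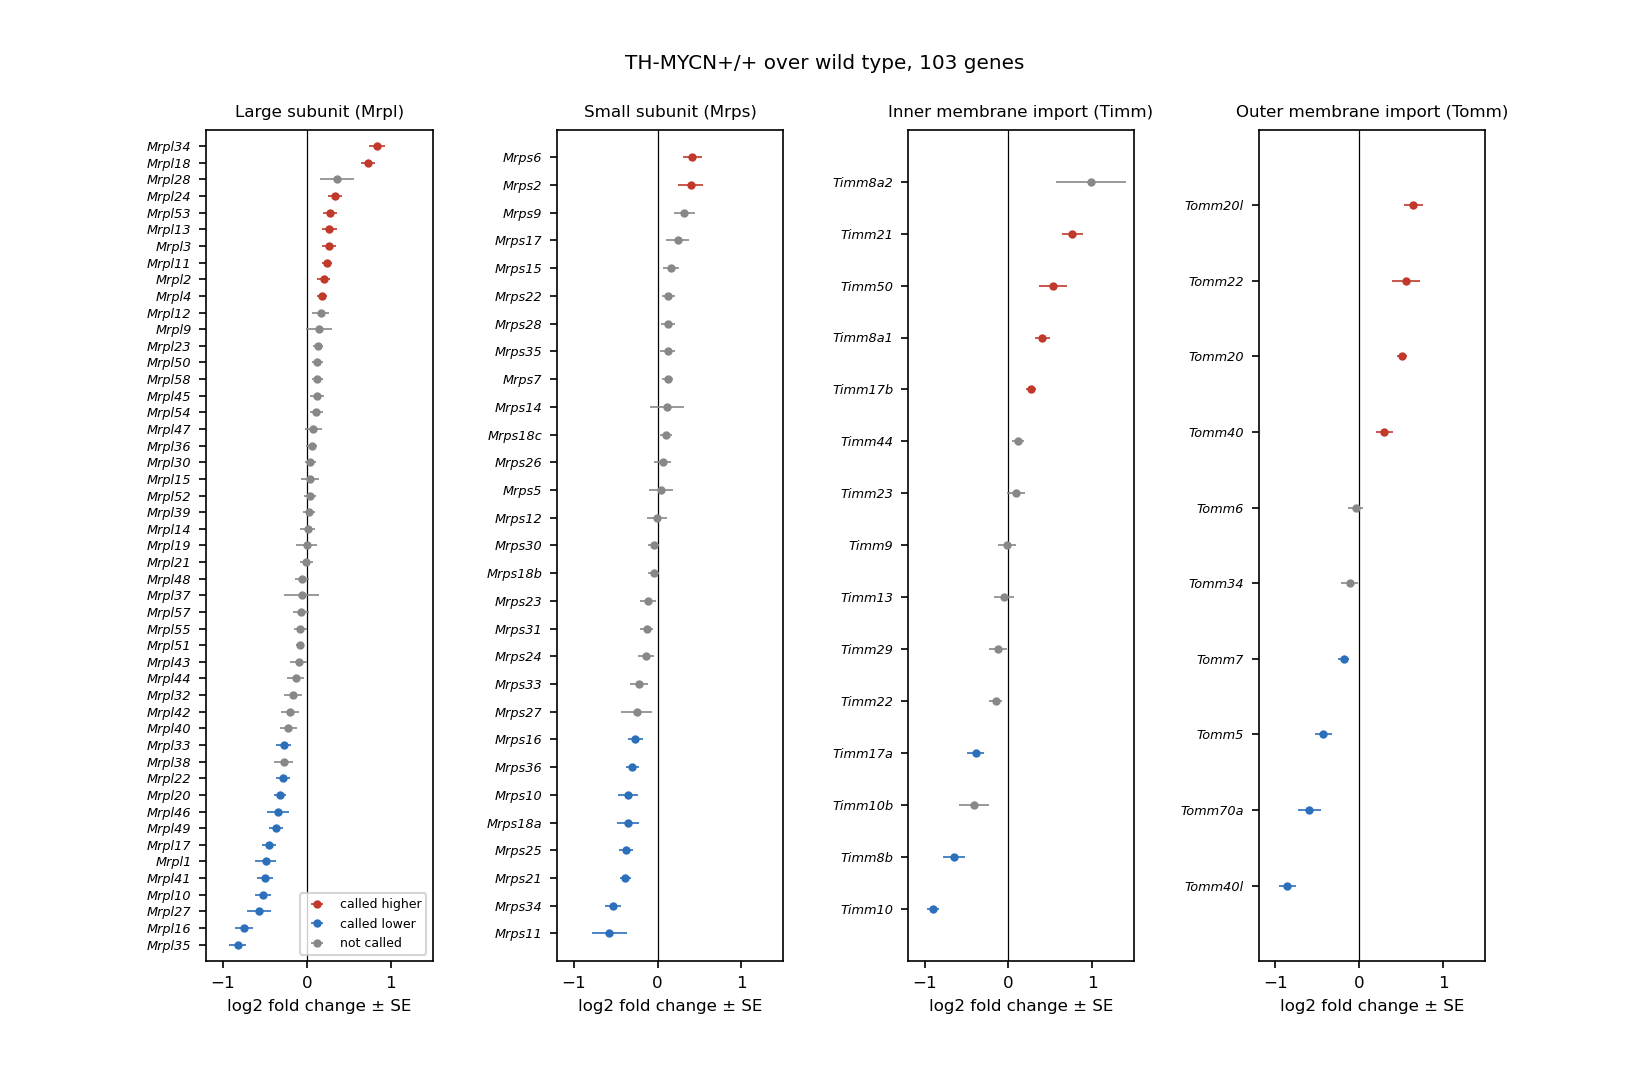
Log2 fold change (TH-MYCN+/+ minus wild type, x axis) of each member on quantile normalized values, in panels for Mrpl, Mrps, Timm and Tomm genes; points are fitted values, bars are ± 1 SE, and colour marks the call at adjusted p under 0.05. Calls in both directions appear in each panel, and Timm8a2 is drawn although it was above background on 0 of 6 TH-MYCN+/+ arrays.

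All 3 sets held calls in both directions, with medians close to 0. Of the 49 large subunit genes, 9 were higher (18.4%) and 12 lower (24.5%), and their median log2 fold change was -0.0037. Of the 29 small subunit genes, 2 were higher (6.9%) and 8 lower (27.6%), with a median of -0.046. Of the 25 import genes, 8 were higher (32%) and 7 lower (28%), with a median of -0.045. Import thus held calls in both directions in similar number, 4 higher and 3 lower among Timm genes and 4 higher and 4 lower among Tomm genes. Across all genes 18.9% were higher and 34.3% lower, and among genes above background on every array 25.1% and 44.5%. Values did not overlap between genotypes for 7 members that were higher and 16 that were lower, where 12.3% and 23.1% of all genes showed such separation. In these bulk samples, fewer cells of a type and less RNA per cell cannot be told apart.

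The larger frame is set by the cytosolic ribosome and the respiratory chain, whose genes moved apart on quantile normalized values. Of 76 genes for cytosolic ribosomal proteins, 50 were higher and 1 was lower, with a median log2 fold change of 0.27. Of 85 nuclear genes for respiratory chain subunits, 3 were higher and 58 were lower, with a median of -0.45. These were 65.8% higher and 1.32% lower for the cytosolic ribosome, and 3.53% and 68.2% for the respiratory chain. Over all genes 18.9% were higher and 34.3% lower, with a median of -0.15. Under spike-in scaling the counts were 70 higher and 0 lower with a median of 0.97 for the cytosolic ribosome, and 4 higher and 0 lower with a median of 0.19 for the respiratory chain. Of all genes 25.9% were then higher and 7.21% lower, with a median of 0.30. The respiratory chain median thus lay below that of all genes under both scalings, and the cytosolic ribosome median above it. The median of the mitochondrial ribosome and import genes lay between those of the cytosolic ribosome and the respiratory chain under both scalings, at -0.015 and 0.49. The difference between the median of the 103 genes and that of the cytosolic ribosomal protein genes on the same array, taken on deposited log2 values and so free of any additive scaling, was -4.28 ± 0.06 in TH-MYCN+/+ (SD, n = 6) and -3.74 ± 0.14 in wild type (SD, n = 7), without overlap. The same difference against the respiratory chain was -2.31 ± 0.11 in TH-MYCN+/+ and -2.62 ± 0.07 in wild type (SD, n = 6 and 7), also without overlap. These differences mix probes, so only their change between genotypes, -0.54 and 0.31 on the log2 scale, can be read.

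**Figure D2:**
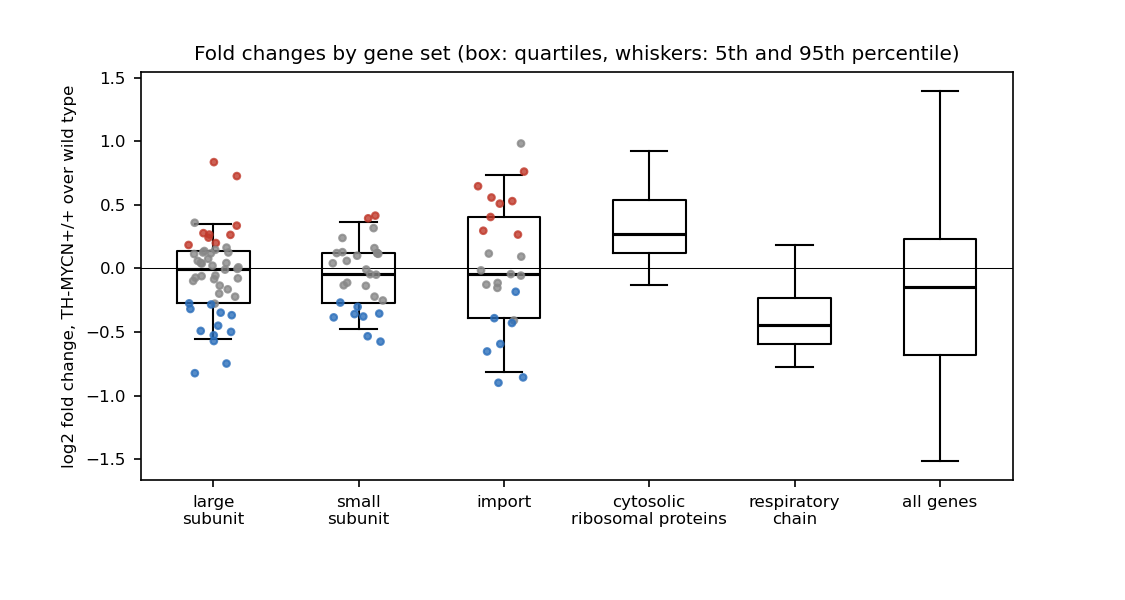
Log2 fold changes (TH-MYCN+/+ minus wild type, y axis) of the large subunit, small subunit and import genes beside cytosolic ribosomal protein genes, respiratory chain genes and all genes; boxes are quartiles with the median, whiskers run from the 5th to the 95th percentile, and points are single members coloured by call (red higher, blue lower, grey not called). The 3 mitochondrial sets have medians between -0.046 and -0.0037, below the cytosolic ribosomal proteins at 0.27 and above the respiratory chain at -0.45.

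The direction of the members' small changes depended on how the arrays were scaled to each other. Deposited array medians ranged from 3.94 to 5.07, so the deposited values did not share a common median. Centring each array on its median gave 5 higher and 39 lower members, where 13.8% of all genes were higher and 49% lower. Centring on the 75th percentile gave 7 higher and 32 lower members, where 17.7% of all genes were higher and 39.4% lower. The values as deposited gave 18 higher and 1 lower, where 25.2% of all genes were higher and 12.5% lower. Scaling to the E1A spike-in probes gave 27 higher and 0 lower, where 25.9% of all genes were higher and 7.21% lower. The mean E1A signal ran from 11.29 to 12.30 among TH-MYCN+/+ arrays and from 11.45 to 12.77 among wild-type arrays, a spread this scaling carries into every gene. Timm10, for example, lay at -0.43 there and was not called (limma adjusted p = 0.19). The median log2 fold change of all genes moved alongside, from -0.44 under median centring to 0.30 under spike-in scaling, and the share of calls that were higher among all genes was 35.5% under quantile normalization, 22% under median centring, 31% under the 75th percentile, 66.8% as deposited and 78.2% under spike-in scaling. The members' median lay above that of all genes under quantile normalization. The other scalings add only a constant to each array, so the gap between the 2 medians cannot differ among them. It was 0.49 beside 0.30 under spike-in scaling and -0.26 beside -0.44 under median centring, which is the same gap and not a second reading. Mrpl34, Mrpl18, Timm21 and Tomm20l were called higher under all 5 scalings, and no member was called lower under all 5. With the wide E1A spread, a call lost under spike-in scaling need not be a change of sign. Of the 19 members called higher, 14 kept a positive sign under every scaling. Of the 27 called lower, 10 kept a negative sign, namely Timm10, Timm8b, Tomm70a, Tomm40l, Mrpl35, Mrpl16, Mrpl27, Mrpl10, Mrpl41 and Mrps34. The words higher and lower below refer to quantile normalized values.

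**Figure D3:**
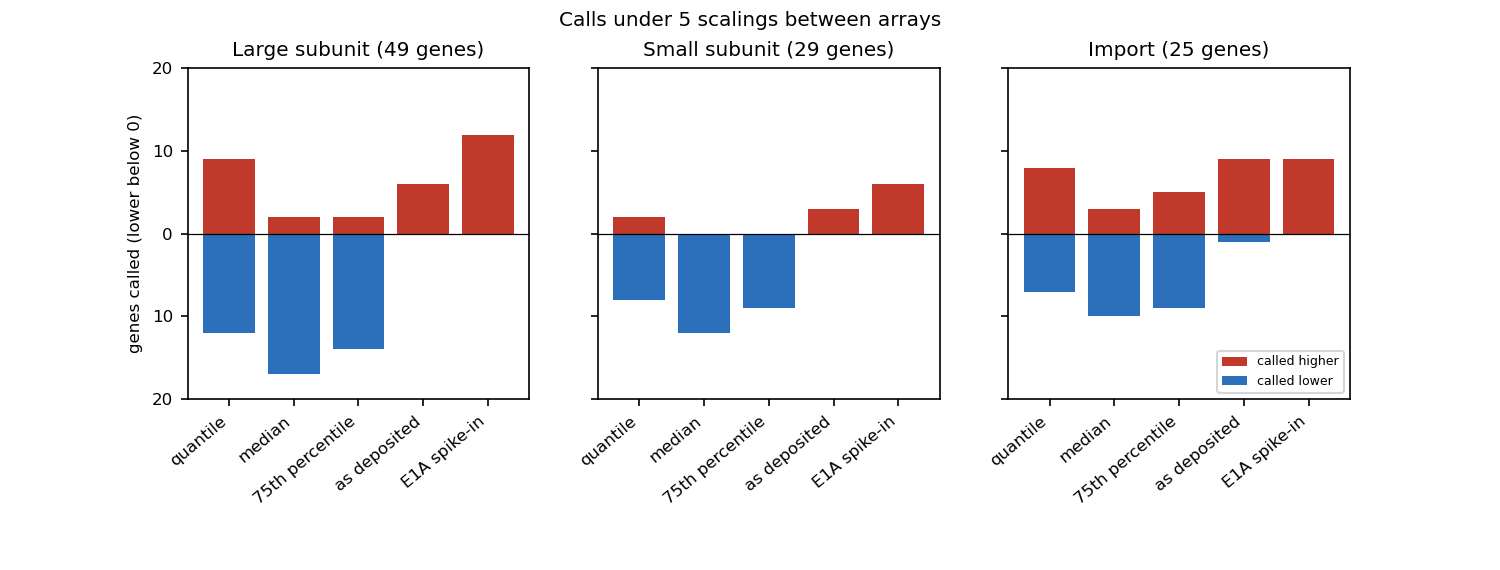
Number of genes called in TH-MYCN+/+ ganglia (y axis, higher above 0 and lower below 0) at adjusted p under 0.05 under 5 scalings of the arrays (x axis), in panels for the large subunit, the small subunit and import. Median centring calls 17, 12 and 10 genes lower in these sets, and spike-in scaling calls 12, 6 and 9 higher and 0 lower.

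Some arrays also stood apart within a genotype. Wild-type arrays 1 and 2 together held the lowest or the highest values among wild-type arrays for 66 of the 103 members (64.1%), against 30.7% of all genes, and for 57 of those 66 they were the highest. Without this pair the calls among members were 25 higher and 24 lower, with 11 and 11 in the large subunit, 7 and 6 in the small subunit, and 7 and 7 in import. Over all genes 19.4% were then called higher and 33% lower. TH-MYCN+/+ array 2 was highest in markers of fat, TH-MYCN+/+ array 6 in markers of skeletal muscle, wild-type array 1 in markers of adrenal cortex and wild-type array 3 in markers of lymphocytes. Without these 4 arrays the calls among members were 13 higher and 21 lower, where 16.3% of all genes were higher and 30.9% lower. The calls of Mrps2, Mrps11, Mrps18a, Tomm22, Tomm40 and Tomm7 were among those lost. Wild-type samples correlated at 0.979 to 0.992 across genes, TH-MYCN+/+ samples at 0.989 to 0.994, and samples of different genotypes at 0.949 to 0.978. The mouse Mycn probe, which need not detect a human transcript, read 10.06 to 10.43 in TH-MYCN+/+ and 10.31 to 10.70 in wild type, and so does not check the labels.

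In the large subunit, the clearest rises were those of Mrpl34 and Mrpl18. Mrpl34, a protein of the bacterial L34 family, had a lowest, median and highest log2 intensity of 11.44, 11.62 and 11.98 in TH-MYCN+/+ ganglia, against 10.53, 10.88 and 10.96 in wild type. The genotypes did not overlap, and its log2 fold change was 0.84 ± 0.10 (SE, 1.78-fold, limma adjusted p = 1.34e-05). Mrpl18, of the L18 family whose human member binds 5S rRNA, had 11.15, 11.28 and 11.62 in TH-MYCN+/+, against 10.48, 10.62 and 10.72 in wild type. Again no wild-type array reached the lowest TH-MYCN+/+ array, and the change was 0.73 ± 0.09 (SE, limma adjusted p = 1.16e-05). The other 7 large subunit genes called higher changed by less, between 0.18 for Mrpl4 and 0.34 for Mrpl24, and their groups overlapped. They were Mrpl24, Mrpl53, Mrpl13, Mrpl3, Mrpl11, Mrpl2 and Mrpl4.

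Of the large subunit genes 24.5% were called lower, against 34.3% of all genes. Without wild-type arrays 1 and 2 the calls were 11 higher and 11 lower, where 19.4% of all genes were higher and 33% lower. Mrpl35, of the L35 family, had 7.17, 7.34 and 7.73 in TH-MYCN+/+, against 7.97, 8.22 and 8.33 in wild type, a fall by 0.82 on the log2 scale. Mrpl16, a protein near the catalytic centre of the large subunit, had 11.48, 11.86 and 12.05 in TH-MYCN+/+, against 12.30, 12.55 and 12.79 in wild type, and fell by 0.75. Both separated the genotypes, with limma adjusted p of 1.45e-05 and 7e-05. Mrpl27, whose bacterial relative reaches into the peptidyl transferase centre, had 11.75, 11.84 and 11.99 in TH-MYCN+/+, against 12.06, 12.26 and 12.96 in wild type, and wild-type arrays 1 and 2, at 12.96 and 12.82, stood above the other wild-type arrays. Mrpl10, which anchors the stalk that recruits translation factors, had 10.05, 10.24 and 10.30 in TH-MYCN+/+, against 10.45, 10.75 and 10.99 in wild type. Mrpl10 and Mrpl27 fell by 0.53 and 0.57 with limma adjusted p of 0.000514 and 0.00405. Mrpl41, Mrpl17, Mrpl49 and Mrpl20 also separated the genotypes, with log2 fold changes of -0.50, -0.45, -0.37 and -0.32. The dimmer probes of Mrpl41 and Mrpl49 were not called, at -0.24 and -0.05. Mrpl1, Mrpl46, Mrpl22 and Mrpl33 were called lower with overlapping groups and log2 fold changes from -0.49 to -0.27. The remaining 28 large subunit genes were not called and had log2 fold changes from -0.28 for Mrpl38 to 0.36 for Mrpl28. Among them was Mrpl12, which forms the stalk with Mrpl10, with a log2 fold change of 0.16 ± 0.10 (SE).

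In the small subunit, 2 genes were higher and neither separated the genotypes. Mrps6, of the S6 family, had 12.64, 12.85 and 13.23 in TH-MYCN+/+, against 12.19, 12.43 and 12.70 in wild type (log2 fold change 0.42 ± 0.12, SE, limma adjusted p = 0.00793). Mrps2, of the S2 family, had 9.61, 9.83 and 10.25 in TH-MYCN+/+, against 9.06, 9.37 and 9.83 in wild type (0.39 ± 0.15, SE, limma adjusted p = 0.0411). The Mrps2 call was lost, with values of 0.32 to 0.41 and an adjusted p of up to 0.0965, when TH-MYCN+/+ array 2, 3, 4 or 6 or wild-type array 3, 4, 6 or 7 was left out, and with the mean of all its probes (0.09). Among the falls, Mrps34, a subunit without a bacterial relative, had 12.21, 12.48 and 12.53 in TH-MYCN+/+, against 12.77, 12.89 and 13.19 in wild type. Mrps21 had 12.41, 12.58 and 12.74 in TH-MYCN+/+, against 12.87, 12.93 and 13.08 in wild type. Mrps25 had 12.03, 12.22 and 12.28 in TH-MYCN+/+, against 12.34, 12.58 and 12.79 in wild type. These 3 genes separated the genotypes, with log2 fold changes of -0.53, -0.38 and -0.38. A second, dimmer Mrps25 probe was called in the opposite direction (0.67 ± 0.21, SE), so the direction of this gene is uncertain. Mrps11, of the S11 family, had 8.03, 8.37 and 8.52 in TH-MYCN+/+, against 8.31, 8.86 and 9.69 in wild type, and its groups overlapped. It was called lower (-0.58 ± 0.21, SE, limma adjusted p = 0.0345), a call lost without TH-MYCN+/+ array 2, 4, 5 or 6 or wild-type array 1, 2 or 5 (-0.59 to -0.44) and without wild-type arrays 1 and 2 together (-0.31, adjusted p = 0.0808). Mrps10, Mrps36 and Mrps16 were called lower with overlap and log2 fold changes of -0.35, -0.30 and -0.27, and 19 small subunit genes were not called.

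Mrps18 has 3 paralogs in mammals, of which 1 was called. Mrps18a had 10.74, 11.15 and 11.24 in TH-MYCN+/+, against 11.19, 11.36 and 11.92 in wild type, and was called lower (-0.36 ± 0.13, SE, limma adjusted p = 0.0348), a call lost without TH-MYCN+/+ array 2, 3 or 5 or wild-type array 1, 2 or 4 (-0.35 to -0.28) and without wild-type arrays 1 and 2 together (-0.22). Mrps18b had 12.16, 12.23 and 12.26 in TH-MYCN+/+, against 12.04, 12.26 and 12.42 in wild type, and was not called. Mrps18c had 11.78, 11.93 and 12.01 in TH-MYCN+/+, against 11.70, 11.83 and 12.06 in wild type, and was not called either.

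At the outer membrane, receptors and channel subunits moved in different directions. Tomm20, the presequence receptor, had 13.32, 13.47 and 13.56 in TH-MYCN+/+, against 12.83, 12.98 and 13.07 in wild type. The genotypes did not overlap, the log2 fold change was 0.51 ± 0.06 (SE, limma adjusted p = 1.4e-05), and all 3 Tomm20 probes were called higher. Tomm20l, its homologue, had 6.04, 6.21 and 6.47 in TH-MYCN+/+, against 5.33, 5.51 and 5.87 in wild type, with no overlap and a change of 0.65 ± 0.11 (SE, limma adjusted p = 0.000216). Tomm22, the central receptor that joins the channel units, had 10.57, 10.76 and 10.95 in TH-MYCN+/+, against 9.63, 10.39 and 10.54 in wild type. Wild-type arrays 1 and 2, at 9.63 and 9.65, lay far below the other wild-type arrays, and the log2 fold change was 0.56 ± 0.16 (SE, limma adjusted p = 0.0111). Without the 4 arrays highest in markers of neighbouring tissue the call was lost (0.44, adjusted p = 0.082). Tomm70a, the receptor for carrier proteins brought by cytosolic chaperones, had 10.94, 11.15 and 11.43 in TH-MYCN+/+, against 11.37, 11.73 and 12.11 in wild type, and fell by 0.59 (SE 0.14, limma adjusted p = 0.00252) on its brightest probe. Its other probe was above background on 0 of 13 arrays and gives no second reading.

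The channel gene Tomm40 had 11.28, 11.55 and 11.89 in TH-MYCN+/+, against 11.03, 11.35 and 11.44 in wild type (0.30 ± 0.10, SE, limma adjusted p = 0.0254), with overlap. That call was lost without TH-MYCN+/+ array 2 or 3 or wild-type array 2 (0.23 to 0.27) and without wild-type arrays 1 and 2 together (0.21, adjusted p = 0.0967). It was also lost under array weights (0.26, adjusted p = 0.0535) and without the 4 arrays highest in markers of neighbouring tissue (0.24, adjusted p = 0.0511). Its paralog Tomm40l moved the other way. It had 8.77, 9.04 and 9.26 in TH-MYCN+/+, against 9.65, 9.85 and 10.11 in wild type, and fell by 0.86 without overlap (SE 0.10, limma adjusted p = 1.12e-05). Of the small TOM subunits, which stabilise the complex, Tomm5 had 13.16, 13.25 and 13.35 in TH-MYCN+/+, against 13.42, 13.66 and 14.10 in wild type. Tomm7 had 13.86, 13.99 and 14.03 in TH-MYCN+/+, against 13.94, 14.15 and 14.35 in wild type. Tomm5 separated the genotypes and Tomm7 did not, with log2 fold changes of -0.43 and -0.18. The Tomm7 call was lost without TH-MYCN+/+ array 5 or 6 or wild-type array 1, 2 or 4 (-0.18 to -0.15) and without wild-type arrays 1 and 2 together (-0.14, adjusted p = 0.0978), while Tomm6 was not called. Tomm34, which is in the import set by its symbol and is not counted here as a small TOM subunit, was not called either.

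**Figure D4:**
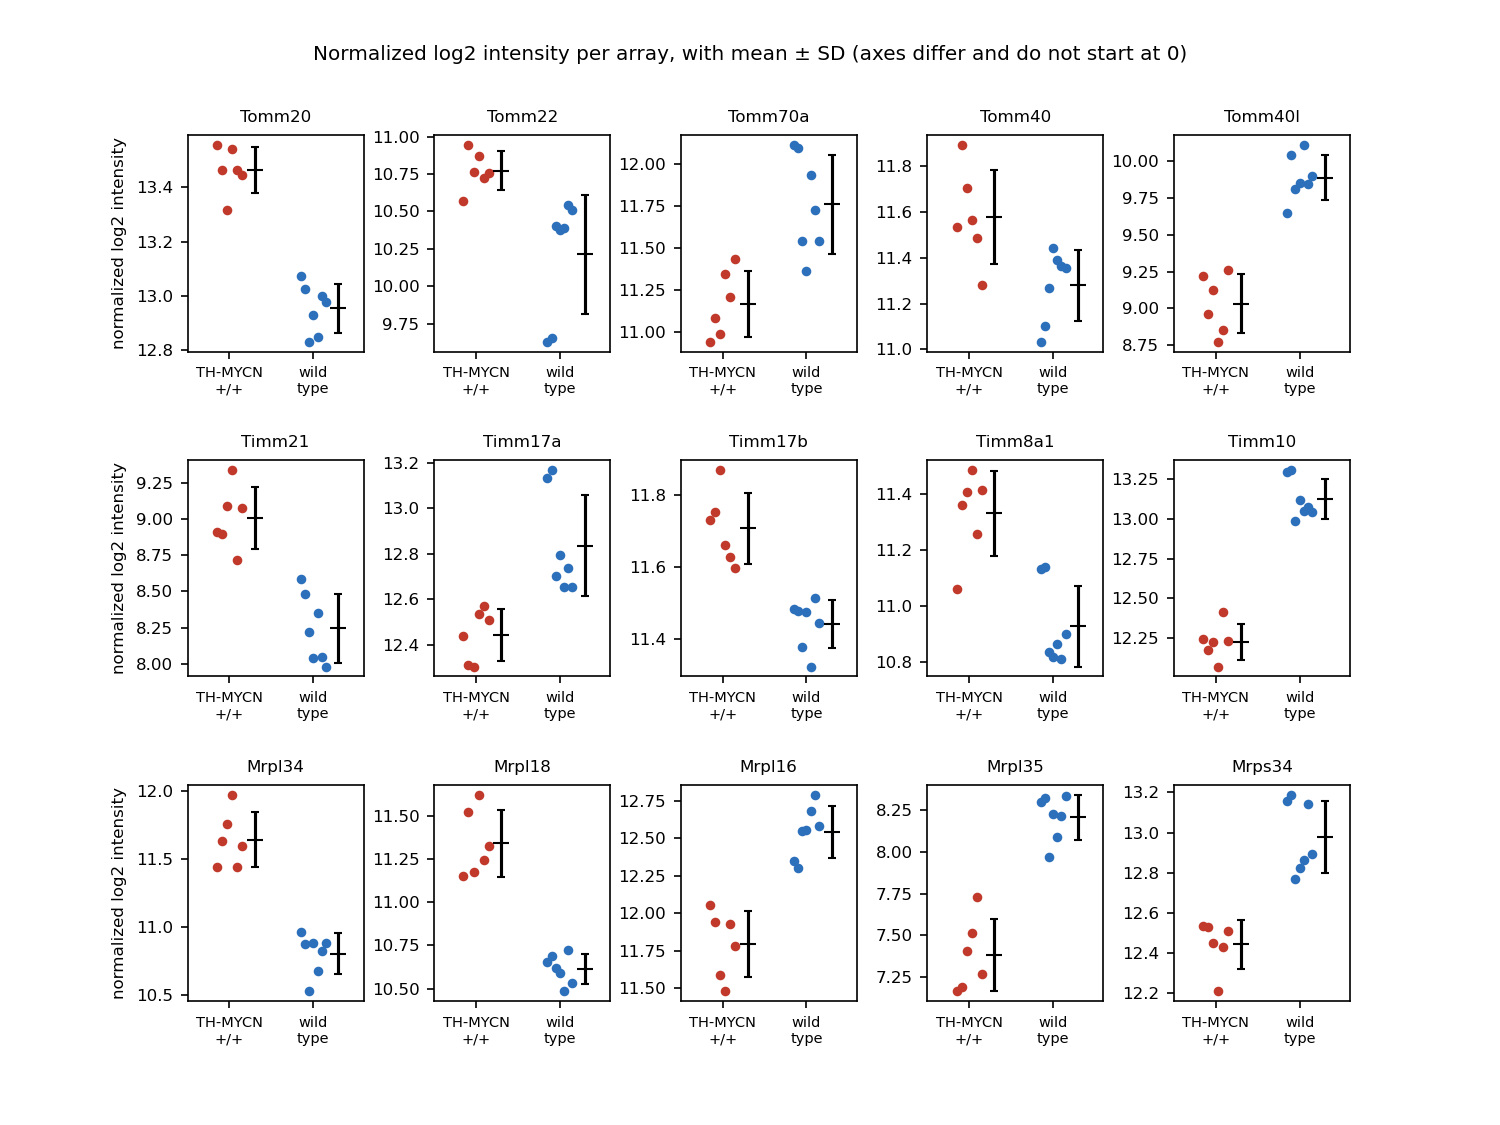
Quantile normalized log2 intensity (y axes, which differ and do not start at 0) of selected members on every array, TH-MYCN+/+ (n = 6) left of wild type (n = 7); points are arrays, and the black mark beside them is the mean ± SD. Timm10, Tomm40l and Mrpl35 lie lower and Mrpl34, Mrpl18, Timm21 and Tomm20 lie higher in TH-MYCN+/+ ganglia with no overlap.

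Among the small Tim chaperones of the intermembrane space, 1 of 7 was higher and 2 were lower. Timm10, which forms a ring with Timm9, had 12.07, 12.23 and 12.42 in TH-MYCN+/+, against 12.99, 13.08 and 13.31 in wild type. No arrays overlapped, and the fall by 0.90 (SE 0.07, limma adjusted p = 8.61e-07) appeared on both of its probes, at -0.90 and -1.01. Timm9 itself had 9.54, 9.79 and 9.86 in TH-MYCN+/+, against 9.54, 9.71 and 10.19 in wild type on its brightest probe, and was not called. Its other probe was called higher at 1.44 ± 0.12 (SE), so the 2 probes of Timm9 do not give one result. Timm8b had 13.87, 14.05 and 14.22 in TH-MYCN+/+, against 14.35, 14.63 and 15.19 in wild type, and fell by 0.65 with no overlap. Timm8a1, whose human counterpart is mutated in deafness-dystonia syndrome, had 11.06, 11.39 and 11.49 in TH-MYCN+/+, against 10.81, 10.86 and 11.14 in wild type, and was higher on both probes (0.40 ± 0.09 and 0.45 ± 0.14, SE). Timm13, the partner of Timm8 proteins, had 13.45, 13.53 and 13.64 in TH-MYCN+/+, against 13.32, 13.51 and 14.00 in wild type, and was not called. Timm10b, a subunit of the TIM22 complex, had 11.03, 12.12 and 12.29 in TH-MYCN+/+, against 12.21, 12.43 and 12.55 in wild type. Its lowest value came from TH-MYCN+/+ array 2, and it was not called with that array (limma adjusted p = 0.0725) but was called lower without it (-0.22, adjusted p = 0.0428). A dimmer Timm10b probe was called lower with all arrays (-0.29, limma adjusted p = 0.00535 in the fit over all array probes, where the brightest probe has 0.0899).

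At the inner membrane, the 2 alternative Timm17 subunits of the TIM23 complex moved in opposite directions. Timm17b had 11.60, 11.70 and 11.87 in TH-MYCN+/+, against 11.32, 11.47 and 11.51 in wild type. Timm17a had 12.30, 12.47 and 12.57 in TH-MYCN+/+, against 12.65, 12.74 and 13.17 in wild type. Neither gene's values overlapped between genotypes, the log2 fold changes were 0.27 ± 0.06 and -0.39 ± 0.10 (SE), and both probes of each gene passed in its own direction. Timm23, the channel, had 12.50, 12.59 and 12.76 in TH-MYCN+/+, against 12.22, 12.55 and 12.78 in wild type, and was not called, although a dimmer probe was (0.24 ± 0.07, SE). Timm21, which links TIM23 to the TOM complex and the respiratory chain, had 8.72, 8.99 and 9.34 in TH-MYCN+/+, against 7.98, 8.22 and 8.58 in wild type, with no overlap and a change of 0.76 ± 0.12 (SE, limma adjusted p = 0.000168). Timm50, the receptor of TIM23, had 10.54, 10.70 and 10.92 in TH-MYCN+/+, against 9.78, 10.10 and 10.79 in wild type, and was higher with overlap (0.53 ± 0.17, SE, limma adjusted p = 0.018). Timm44, which tethers the import motor, had 11.37, 11.53 and 11.66 in TH-MYCN+/+, against 11.21, 11.45 and 11.57 in wild type. Timm22, the carrier translocase, had 11.31, 11.37 and 11.45 in TH-MYCN+/+, against 11.34, 11.47 and 11.74 in wild type, and neither Timm44 nor Timm22 was called. A dimmer Timm22 probe was called lower (-1.24 ± 0.30, SE), but lay above background on 7 of 13 arrays only.

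Differences between paralogs on one array do not change when a constant is added to all its log2 values, so they test unequal change without a choice of centring. They were taken on deposited values for 8 pairs and compared by a two-sided exact permutation test over the 1716 splits of the arrays, where the smallest p is 0.000583, with Benjamini-Hochberg adjustment over the 8 pairs. These genes were known from earlier results of these data, so the tests describe the size and spread of a difference rather than find it. Tomm40 minus Tomm40l was 2.49 ± 0.33 in TH-MYCN+/+ (SD, n = 6) and 1.41 ± 0.15 in wild type (SD, n = 7), a difference of 1.08 or 2.11-fold with no overlap (exact permutation adjusted p = 0.00117). Timm17b minus Timm17a was -0.73 ± 0.21 in TH-MYCN+/+ and -1.39 ± 0.20 in wild type, a difference of 0.66 or 1.58-fold with no overlap (exact permutation adjusted p = 0.00117). Timm8a1 minus Timm8b was -2.78 ± 0.27 in TH-MYCN+/+ and -3.69 ± 0.20 in wild type, a difference of 0.91 with no overlap (exact permutation adjusted p = 0.00117). Mrps18a minus Mrps18c was -0.83 ± 0.19 in TH-MYCN+/+ and -0.37 ± 0.16 in wild type, a difference of -0.46 with no overlap (exact permutation adjusted p = 0.00117). These 4 pairs thus changed their balance between genotypes whichever constant is used.

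**Figure D5:**
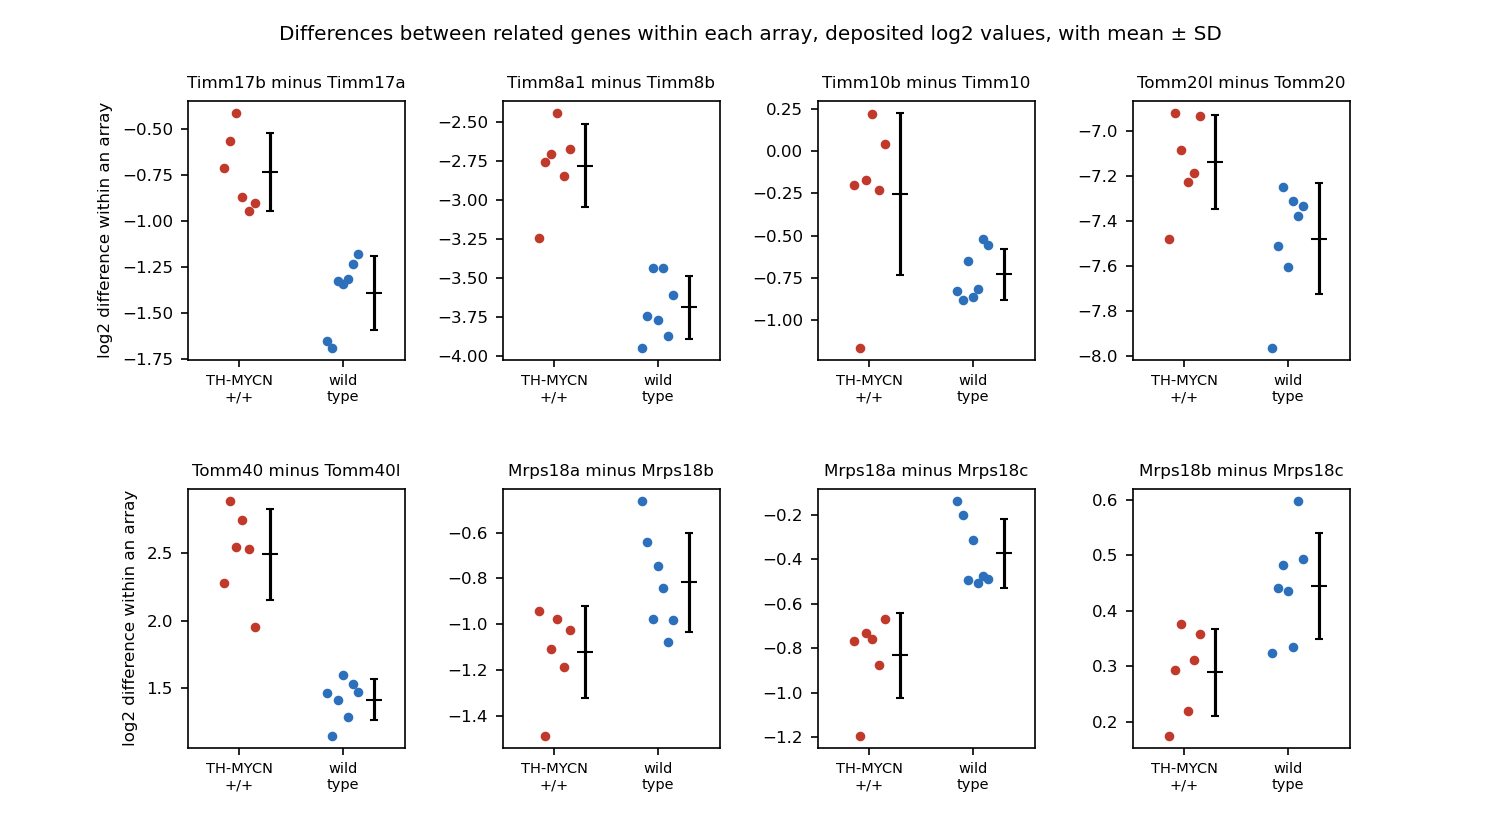
Difference of paired genes' deposited log2 values on the same array (y axis), TH-MYCN+/+ (n = 6) left of wild type (n = 7), one panel per pair; points are arrays, and the black mark is the mean ± SD. Tomm40 minus Tomm40l, Timm17b minus Timm17a, Timm8a1 minus Timm8b and Mrps18a minus Mrps18c do not overlap between genotypes.

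The other pairs overlapped. Timm10b minus Timm10 differed by 0.48 (exact permutation adjusted p = 0.0274), Tomm20l minus Tomm20 by 0.34 (0.024 by the same test), Mrps18a minus Mrps18b by -0.30 (0.024) and Mrps18b minus Mrps18c by -0.16 (0.0159). On quantile normalized values the Tomm20l and Tomm20 difference was 0.14 and its adjusted p was 0.263, so that unequal change was not seen there.

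Sets can be set against each other on one array in the same way, here without a test. The small subunit median lay further below the large subunit median in TH-MYCN+/+, by 0.45 ± 0.07 (SD, n = 6), than in wild type, by 0.27 ± 0.12 (SD, n = 7), with overlapping ranges of 0.36 to 0.53 in TH-MYCN+/+ and 0.14 to 0.49 in wild type. The import median minus the small subunit median was 0.21 ± 0.09 in TH-MYCN+/+ and -0.011 ± 0.09 in wild type, and its ranges, 0.10 to 0.32 in TH-MYCN+/+ and -0.16 to 0.12 in wild type, overlapped slightly. The import median minus the large subunit median was -0.24 ± 0.14 in TH-MYCN+/+ and -0.28 ± 0.06 in wild type, a change within the spread of either group.

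A further limit on single genes lies in the probes. The brightest probe stood for each gene, and 42 members had more than 1 probe. Dimmer probes were called in the fit over all 55681 array probes. In that fit the brightest probes of Mrps2, Mrpl2 and Mrpl46, called over genes, had limma adjusted p of 0.0522, 0.0543 and 0.0518. Besides Mrps25, Timm9 and Timm23, dimmer probes were called higher for Mrpl9 (1.92 ± 0.16, SE), Tomm6 (1.05 ± 0.18, SE) and Mrpl15 (0.97 ± 0.09, SE), whose brightest probes were not called. Dimmer probes were called lower for Timm10b (-0.29 ± 0.07, SE), Timm22 (-1.24 ± 0.30, SE) and Mrpl21 (-1.49 ± 0.50, SE), again with uncalled brightest probes. The dimmer probes of Tomm6, Timm22 and Mrpl21 lay above background on 11, 7 and 2 of 13 arrays, the others on all 13. Some members called over genes had a dimmer probe, above background on all 13 arrays, that was not called. They were Mrpl49 (-0.05), Mrpl41 (-0.24), Mrpl4 (0.23), Mrps36 (-0.10), Mrps2 (-0.21), Tomm40 (0.20) and Timm50 (0.51). Every dimmer probe was called in the same direction for Mrpl10, Mrpl22, Mrpl27, Timm10, Timm17a, Timm17b, Timm8a1, Tomm20, Tomm5 and Tomm7. What the dimmer probes detect beyond the brightest one was not tested.

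The proteins that build and serve the mitochondrial ribosome held calls in both directions on quantile normalized values. Of 25 measured assembly factors, 5 were higher (20%) and 9 lower (36%), with a median log2 fold change of -0.17. Over all genes 18.9% were higher and 34.3% lower, with a median of -0.15, so the assembly factors lay near the background. Gtpbp10 and Mettl17, which act in the maturation of the large and the small subunit, were higher at 1.01 ± 0.11 and 0.99 ± 0.15 (SE). Mpv17l2 and Rbfa, an assembly factor of the inner membrane and a small subunit maturation factor, were lower at -1.26 ± 0.20 and -0.96 ± 0.20 (SE). Of 4 ribosomal subunits named outside the Mrpl and Mrps series, Ptcd3 was higher at 0.52 ± 0.10 and Gadd45gip1 was lower at -0.78 ± 0.10 (SE). Of 15 translation factors, 3 were higher (20%) and 1 lower (6.67%). The initiation factor Mtif2 at 0.58 ± 0.09 and the formyltransferase Mtfmt at 0.36 ± 0.08 lay above 0, and the recycling factor Mrrf at -0.46 ± 0.16 (SE) lay below. Under spike-in scaling the counts were 9 higher and 1 lower among assembly factors, 1 and 0 among the 4 subunits, and 5 and 0 among translation factors, with medians of 0.43, 0.43 and 0.58. Of all genes 25.9% were then higher and 7.21% lower, with a median of 0.30.

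The partners of import also held calls in both directions. Of 18 measured, 4 were higher and 4 lower (22.2% each), with a median of 0.03, where 18.9% of all genes were higher and 34.3% lower. Hspa9, the matrix chaperone that pulls proteins through TIM23, was higher at 0.59 ± 0.09, as was Pmpca, a subunit of the presequence protease, at 0.41 ± 0.13 (SE). Mipep, an intermediate peptidase, and Grpel1, the exchange factor of Hspa9, were lower at -0.65 ± 0.21 and -0.61 ± 0.13 (SE). Of 12 matrix chaperones and proteases, 3 were higher and 3 lower (25% each). Among them were the protease gene Afg3l1 at 0.58 ± 0.10 and the chaperonin Hspd1 at 0.49 ± 0.08, against the inner membrane proteases Oma1 at -0.63 ± 0.25 and Yme1l1 at -0.37 ± 0.13 (SE). Under spike-in scaling 6 import partners were higher and 0 lower, and 3 chaperones and proteases were higher and 0 lower, with medians of 0.56 and 0.49. Of all genes 25.9% were higher and 7.21% lower under that scaling, with a median of 0.30.

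The next list holds genes that regulate or copy the mitochondrial genome, or regulate its nuclear partners. Of 17 measured, 6 were higher (35.3%) and 2 lower (11.8%), with a median of 0.16, where 18.9% of all genes were higher and 34.3% lower. Under spike-in scaling 7 were higher and 0 lower, with a median of 0.70, where 25.9% of all genes were higher and 7.21% lower. The coactivator Pprc1 averaged 8.30 ± 0.08 in TH-MYCN+/+ (SD, n = 6) and 6.99 ± 0.45 in wild type (SD, n = 7), and the mitochondrial helicase Twnk averaged 7.51 ± 0.21 in TH-MYCN+/+ and 6.44 ± 0.36 in wild type. Both separated the genotypes and were over 2-fold higher, at 1.31 ± 0.18 and 1.07 ± 0.16 on the log2 scale (SE). The factors whose motifs were searched in the promoters belong here. Nrf1 was at 1.03 ± 0.12, and the GABP subunits Gabpb1 and Gabpa were at 0.87 ± 0.11 and 0.49 ± 0.13 (SE), all called higher, while Yy1 was not called at -0.09 ± 0.08 (SE). Ppargc1b and Ppargc1a, coactivators of mitochondrial biogenesis, were called lower at -0.74 ± 0.25 and -0.67 ± 0.18 (SE). By call, the E-box stood in 4 of 16 promoters of members called higher, 2 of 24 of those called lower and 4 of 51 of those not called, and the ETS motif in 5, 10 and 20 of the same promoters. The NRF1 motif stood in 1 of the 16, 3 of the 24 and 11 of the 51, and the YY1 motif in 1, 4 and 8. Members with the ETS or the NRF1 motif were found among all 3 calls, on few promoters. Whether these factors act at these promoters was not tested.

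Genes often used to gauge mitochondrial content were mostly lower. Of 19 measured, 1 was higher (5.26%) and 12 lower (63.2%), with a median of -0.41, where 18.9% of all genes were higher and 34.3% lower. Slc25a4, an ADP/ATP carrier, and Mfn2, a fusion protein of the outer membrane, were lower at -0.93 ± 0.12 and -0.77 ± 0.09 (SE), and the prohibitin Phb2 was the one higher, at 0.73 ± 0.14 (SE). Under spike-in scaling this list had 1 gene higher and 0 lower, and a median of 0.19. Of all genes 25.9% were then higher and 7.21% lower, with a median of 0.30. The sign of the list's median thus depends on the scaling. It lay below the median of all genes under both, at -0.41 beside -0.15 and at 0.19 beside 0.30.

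Marker levels of several cell types moved with the genotype beside these results. All 9 proliferation genes were higher, with a median log2 fold change of 4.45 and array means of 11.90 to 12.60 in TH-MYCN+/+, against 7.35 to 8.24 in wild type. Of 11 sympathetic neuron markers, all above background on every array, 8 were lower and 2 higher, with array means of 13.82 to 14.39 in TH-MYCN+/+ and 14.67 to 14.94 in wild type. Of the Schwann and satellite glia markers 7 of 8 were lower and 1 higher, and the log2 of their summed linear level was 15.77 to 16.65 in TH-MYCN+/+, against 17.29 to 17.90 in wild type. All 8 endothelial markers were lower, at a summed level of 12.63 to 13.10 in TH-MYCN+/+ and 13.48 to 14.11 in wild type, and all 7 fibroblast markers were lower, at 16.00 to 16.81 in TH-MYCN+/+ and 17.97 to 18.29 in wild type. Of the 8 macrophage markers 2 were higher and 3 lower, at summed levels of 12.65 to 13.03 in TH-MYCN+/+ and 12.70 to 13.19 in wild type. Under spike-in scaling all 9 proliferation genes were again called higher, while the markers called lower were 4 of 11 sympathetic, 4 of 8 glial, 0 of 8 endothelial, 6 of 7 fibroblast and 1 of 8 macrophage markers.

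Markers of neighbouring tissue varied between arrays. Of 7 fat markers 5 were lower, at a summed level of 13.49 to 15.85 in TH-MYCN+/+ and 14.91 to 15.39 in wild type. Of 8 skeletal muscle markers 1 was lower, at 7.37 to 16.14 in TH-MYCN+/+ and 9.82 to 12.36 in wild type. None of 7 adrenal cortex markers was called, at 7.41 to 9.02 in TH-MYCN+/+ and 6.80 to 11.52 in wild type, and Cyp11b2 was below background on every array. Of 7 lymphocyte markers 1 was lower, at 8.26 to 10.39 in TH-MYCN+/+ and 8.99 to 13.15 in wild type. The part of proliferation and of other cell types in the changes of the mitochondrial genes was not tested.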

How the data were processed

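Total RNA from 6 TH-MYCN+/+ and 7 wild-type ganglia samples was measured on 1-colour arrays. The values that the authors deposited were taken to be log2 intensities. No source names the base, which was read off their range, and all fold changes depend on it. The sources used here do not name the scanner software, the background correction or the genome build. The share of probes above background was 56.3% on the array with the fewest and 63% on the array with the most.

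Of 55681 array probes, 30626 carried 1 symbol in the platform annotation, 25055 carried none and were left out, and the probe with the highest mean stood for its gene. All 153 member probes matched by Entrez number and 0 symbols changed. Array probes were quantile normalized. Background was the 95th percentile of 96 ERCC probes, which assumes that no ERCC RNA was added. Spike-in scaling used 7 of 10 E1A probes and assumes equal amounts. The comparison used lmFit and eBayes of limma 3.58.1 in R 4.3.3 (TH-MYCN+/+ minus wild type, two-sided, no filter, Benjamini-Hochberg over 21893 genes). The procedure was also run on simulated data. Those data had independent genes, few of them changed, and no shifts between arrays, so that run cannot test the scaling. At an unadjusted p under 0.05, 12574 genes differed.

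The members, lists and tests were chosen with earlier results of these data known. Values per array are given for the 4 largest called rises and falls in each of Mrpl, Mrps, Timm and Tomm, for small Tims, import channels and receptors, and for Mrps18 paralogs; of each list, the 2 largest called rises and falls are named, with exceptions picked after their values were seen: Mrpl12, Nrf1, Gabpb1, Gabpa, Yy1 and the dimmer probes. Replicate numbers were not used to pair the samples in the main fit. Of same-numbered pairs, 0 of 6 correlated above 0.1 once genotype means were removed, which cannot exclude a pairing. Listed genes without a matching symbol, such as Aurkaip1, were not analysed here.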

Additional observations from a re-analysis of the deposited data

Results flagged for a closer look

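A sample was singled out where its gap to the nearest other value of its group, divided by the range of that group, passed Dixon's 95% limit. Chance does this in about 1 in 20 groups, and 6 of 100 groups of values passed, all in TH-MYCN+/+. Timm10b in TH-MYCN+/+ array 2 was at 11.03, below 12.04 to 12.29 in the other TH-MYCN+/+ arrays, and Timm10b minus Timm10 was -1.17 there, below -0.23 to 0.22. That array was also the highest in fat markers. Mrps34 was at 12.21 in TH-MYCN+/+ array 4, below 12.43 to 12.53. Mrps25 was at 12.03 in TH-MYCN+/+ array 6, below 12.19 to 12.28. Timm9 was at 9.54 in TH-MYCN+/+ array 1, below 9.76 to 9.86. The large subunit median was at 11.95 in TH-MYCN+/+ array 1, above 11.76 to 11.82.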

How the results depend on the processing

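The scaling of the arrays changed the calls most. Over all genes, 2746 were lower on values as deposited and 1579 under spike-in scaling, against 7516. In the large subunit, 2 genes were higher under median centring, 2 under the 75th percentile and 3 with the replicate number as a block, and 0 were lower as deposited and 0 under spike-in scaling. In the small subunit, the count higher was 0 under median centring, 0 under the 75th percentile, 6 under spike-in scaling, 1 with the replicate block, 1 with the mean of all probes, 1 without the 4 arrays highest in markers of neighbouring tissue and 7 without wild-type arrays 1 and 2 (both sets of arrays chosen after seeing the data). The count lower was 0 as deposited, 0 under spike-in scaling, 4 with the replicate block and 4 without those 4 arrays. In import, 3 genes were higher under median centring and 5 under the 75th percentile, and 1 was lower as deposited and 0 under spike-in scaling. The import median relative to all genes was 0.26 with the mean of all probes. With the replicate block 10 members were higher and 20 lower, where 16.8% of all genes were higher and 31.3% lower. Same-numbered arrays correlated at -0.13 to 0.05 once genotype means were removed, and none correlated best with its own number. Such values cannot exclude a pairing, so whether the numbers pair the samples is not known.

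Of the 27 members called lower, 17 had a positive sign under spike-in scaling. Among those whose values per array are given, these were Mrps11 (0.000714), Mrps21 (0.0928), Mrps25 (0.0793), Timm17a (0.0717), Tomm5 (0.0957), Tomm7 (0.39) and Mrps18a (0.105). The sign also turned as deposited for Tomm7 (0.23), under median centring for Timm17b (-0.0127) and, among members called higher, Mrpl13, Mrpl3, Mrpl2 and Mrpl4, and with the mean of all probes for Mrps25 (0.14) and Timm9 (0.71). The cause was not tested, except that the mean of all probes brings in the opposed probes.

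Leaving out single arrays gave 3795 to 4138 genes higher and 7149 to 7690 lower over all genes, 7 to 10 and 11 to 14 in the large subunit, 1 to 3 and 5 to 8 in the small subunit, and 7 to 9 and 6 to 8 in import. The small subunit count higher was 1 without TH-MYCN+/+ array 2, 3, 4 or 6 or wild-type array 3, 4, 6 or 7, and its count lower was 5 without TH-MYCN+/+ array 2. Leaving out dim genes, a trended and robust variance and array weights each kept the 3 sets' counts within 1.5 times, though array weights lost the Tomm40 call (0.26, adjusted p = 0.0535). Signal over background limits Timm8a2 and a dimmer probe each of Tomm70a, Timm22, Tomm6, Mrpl21, Timm10b and Tomm20l. With the mean of all probes the Tomm70a call was lost (-0.11) and Timm22 was called lower (-0.70), each through such a dim probe.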
